A study of Mus musculus with 6 samples.

Results

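The cluster of miR-322, miR-503, miR-351, miR-542 and miR-450 is a row of 7 microRNA hairpins on the mouse X chromosome, and 8 of its mature strands were followed here: mmu-miR-322-5p, mmu-miR-322-3p, mmu-miR-503-5p, mmu-miR-351-5p, mmu-miR-542-3p, mmu-miR-542-5p, mmu-miR-450a-5p and mmu-miR-450b-5p, named below without the species prefix. They were taken by name from the deposited table, which lists all 8 among 1184 miRNAs. Another 5 strands of the same hairpins (miR-503-3p, miR-351-3p, miR-450a-1-3p, miR-450a-2-3p and miR-450b-3p) were also listed and are described beside them. The libraries came from GMLPs, a progenitor population sorted from mouse bone marrow, and then kept for 3 days in culture in the presence of DOX (doxycycline, the usual switch for inducible transgenes). The ME group (n = 3) carried MLL-ENL, a leukaemia fusion gene. The L28BME group (n = 3) carried the same MLL-ENL and, in addition, LIN28B, a fetal protein that binds RNA and blocks the maturation of let-7 miRNAs. Both groups were cultured with DOX, so MLL-ENL and the drug were common to all libraries. The sources used here do not give age, strain, the promoters of the transgenes or the number of mice per library. No label says that the 3 libraries of a group came from separate animals, so p-values reflect differences among libraries that may be technical.

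A miRNA hairpin is cut from a longer primary transcript and then into a duplex, and one or both strands (the 5p and the 3p arm) are loaded onto an Argonaute protein. Bases 2 to 8 of the loaded strand, the seed, pair with target mRNAs, so strands with the same seed share many targets. Hairpins that lie in one transcript can still yield unequal amounts of mature strand, because each is cut and its products decay on their own. miR-322 is the mouse counterpart of human miR-424. Together with miR-503 it is known to restrain the cell cycle, with cyclin D1 and Cdc25a among the reported targets, and in human cells miR-424 is reported to favour monocyte differentiation. miR-542-3p is reported to repress survivin, an inhibitor of cell death.

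In GRCm38 all 7 hairpins lie on the minus strand of chromosome X within 6353 bases. In the direction of transcription the order is Mir322 (chrX:53054255-53054349), Mir503 (chrX:53053984-53054054), Mir351 (chrX:53053255-53053353), Mir542 (chrX:53049403-53049487), Mir450-2 (chrX:53048299-53048367), Mir450-1 (chrX:53048154-53048244) and Mir450b (chrX:53047997-53048078). RefSeq places Mir322, Mir503 and Mir351 inside the span of the long non-coding RNA gene C430049B03Rik (chrX:53053112-53057190), whereas the other 4 lie downstream of it. The first 3 hairpins start within 996 bases of each other, and Mir542 starts 4862 bases downstream of the start of Mir322.

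The mature sequences (RefSeq, GRCm38.p6) are shown because they set which strands can share targets and which could be confused in counting. They are written 5′ to 3′ with the seed in capitals, first for the 8 strands in order along the locus.
miR-322-5p: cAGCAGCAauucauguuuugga
miR-322-3p: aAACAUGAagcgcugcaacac
miR-503-5p: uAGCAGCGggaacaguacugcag
miR-351-5p: uCCCUGAGgagcccuuugagccug
miR-542-5p: cUCGGGGAucaucaugucacga
miR-542-3p: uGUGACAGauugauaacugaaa
miR-450a-5p: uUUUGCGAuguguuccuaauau
miR-450b-5p: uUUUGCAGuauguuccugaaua
The 2 near-copies among the 3p arms of the miR-450 hairpins follow.
miR-450a-1-3p: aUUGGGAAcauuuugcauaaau
miR-450b-3p: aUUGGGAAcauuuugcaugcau
miR-322-5p has the seed AGCAGCA of miR-15a-5p, miR-15b-5p, miR-16-5p, miR-195a-5p and miR-497a-5p, while the seed of miR-503-5p differs from it in its last base. miR-351-5p has the seed CCCUGAG of miR-125a-5p and miR-125b-5p. The sequence of miR-450a-5p is the same in Mir450-1 and Mir450-2, so its reads cannot be assigned to either hairpin. miR-450a-1-3p and miR-450b-3p differ at 2 of 22 bases and share a seed, so reads could be split between them, and the values of both are uncertain to that extent.

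Values are the authors' scaled signal, called CPM in their table, in which each whole read was worth a fixed amount per library. Libraries held 2745970 to 5528960 reads, summed over all listed small RNAs. Strands of let-7, with miR-98 counted among them, made up 26.2% to 27.5% of these reads in the ME libraries. In the L28BME libraries they made up 3.23% to 3.32%. The myeloid miRNAs miR-223-3p and miR-142a-3p were among the 5 most abundant miRNAs of both groups. The 4 listed erythroid miRNAs were scarce, with summed values of at most 10.8 in any library. The only listed lymphoid miRNA, miR-150-5p, averaged 384 in ME and 341 in L28BME, and its groups overlapped. Tests covered the 387 miRNAs that reached 5 in 3 or more libraries; 93 of them were higher and 124 lower in L28BME at a limma adjusted p under 0.05. All 8 strands of the rule had a value of at least 5 in every library, so none entered the test through 1 group alone. Of the other 5 strands miR-450a-2-3p was below that filter.

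The comparison of L28BME with ME asked whether the cluster differs when LIN28B is added to the fusion gene. Its summed level overlapped between the groups, while its strands moved apart. miR-542-3p and miR-450b-5p rose 1.72-fold and 1.43-fold, miR-322-3p and miR-351-5p fell 1.23-fold and 1.41-fold, and miR-322-5p, the main product, had the median change of all tested miRNAs. By hairpin, the strands of Mir322, Mir503 and Mir351 lay at or below the bulk of miRNAs in L28BME, and those of Mir542 and the Mir450 hairpins lay above it. Of the 8 strands 2 were higher and 2 lower at a limma adjusted p under 0.05 and 4 did not pass. That is 4 of 8, against 56.1% of all tested miRNAs (24.0% higher and 32.0% lower), so the share called was near the background. The median log2 change of the 8 was 0.13, beside -0.014 over all 387 tested miRNAs. For 7 of the 8 strands the values of the 3 ME libraries lay apart from those of the 3 L28BME libraries, as they did for 61.5% of all tested miRNAs. With plain library size 6 of the 8 were higher and 0 lower, where 62.5% of all tested miRNAs were higher and 8.53% lower.

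**Figure D1:**
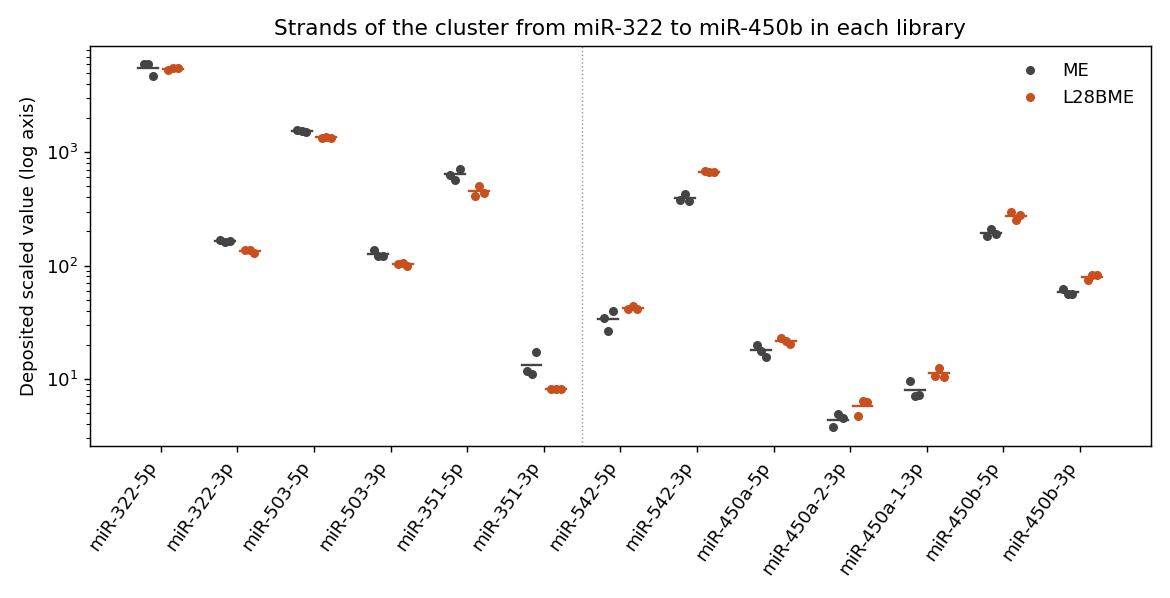
Deposited scaled value (log axis) of all 13 listed strands in each library, in order along the locus from left to right. Short lines are group means. The dotted line separates the strands of Mir322, Mir503 and Mir351 from those of Mir542 and the Mir450 hairpins. miR-322-5p, with means of 5586 and 5496, is far above the other strands, and miR-542-3p shows the widest gap between the groups, 372 to 427 in ME and 667 to 678 in L28BME.

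miR-322-5p accounted for most of the cluster. Its scaled value was 6022, 6019.5 and 4715 in ME libraries 001, 002 and 003, and 5317, 5565 and 5606 in L28BME libraries 004, 005 and 006. The groups overlapped, and ME library 003 was lower than every other library. The log2 change, computed on log2(value + 1) as all log2 changes below, was -0.014 (SE 0.094, limma adjusted p = 0.914, 95% interval -0.22 to 0.19). It ranked 38 of 387 by mean level in ME and 31 in L28BME, and its change was the median of the 387. With plain library size in place of the deposited scaling it was 0.48 (limma adjusted p = 3.46e-05), where the median of all miRNAs also moved to 0.46.

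Its opposite arm, miR-322-3p, was 167, 161 and 166 in ME and 137, 136 and 129 in L28BME. All ME libraries were above all L28BME libraries. The arm fell by 0.29 on the log2 scale (SE 0.09, limma adjusted p = 0.0134), a call that was lost without L28BME library 006 (limma adjusted p = 0.0794) and with the total without let-7 as scale (limma adjusted p = 0.0882). With plain library size its change was 0.20 (limma adjusted p = 0.0716). Within a library the ratio of the arms does not depend on scaling. miR-322-5p exceeded miR-322-3p 36.1, 37.4 and 28.5 times in ME, and 38.7, 40.9 and 43.6 times in L28BME. The ratio was higher in every L28BME library than in any ME library, a log2 difference of 0.28 (exact permutation test over libraries, two-sided p = 0.1, the smallest that 3 against 3 libraries allow). Without ME library 003, the lowest, the difference was 0.16 (exact permutation p = 0.2). The ratio of miR-503-5p to miR-503-3p was also higher in L28BME without overlap, by 0.13 on the log2 scale (exact permutation p = 0.1). The arm ratios of miR-351 and miR-450b overlapped between the groups (exact permutation p = 0.5 and 0.7).

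miR-503-5p, the partner of miR-322 in the cell cycle, was the next most abundant strand. Its values were 1569, 1536 and 1507 in ME, against 1344, 1373 and 1352 in L28BME. The groups did not overlap and differed little, and the log2 change, -0.18 (SE 0.075, limma adjusted p = 0.0527), did not pass. With plain library size the change was 0.32 and passed (limma adjusted p = 0.00109). miR-503-3p, the opposite arm, was 137, 122 and 121 in ME and 102, 106 and 99.0 in L28BME. It fell by 0.31 on the log2 scale (SE 0.097, limma adjusted p = 0.0158), and the call was lost without ME library 001 (limma adjusted p = 0.0547) or L28BME library 006 (limma adjusted p = 0.0797) and with the total without let-7 as scale (limma adjusted p = 0.0786). The change turned to 0.19 with plain library size (limma adjusted p = 0.0982).

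miR-351-5p, which shares the miR-125 seed, fell furthest among the 8 strands. ME libraries had 632, 575 and 705 and L28BME libraries 415, 499 and 438. The lowest ME value was above the highest L28BME value, and the means were 637 ± 65.2 and 451 ± 43.5 (SD, n = 3 each), 1.41-fold apart. The log2 change was -0.50 (SE 0.1, limma adjusted p = 0.000986). With plain library size it was -0.0017 (limma adjusted p = 0.99), while the median of all miRNAs was 0.46 on that scale. The opposite arm, miR-351-3p, was 11.6, 11.0 and 17.3 in ME and 8.13, 8.05 and 8.12 in L28BME. It rests on 26 to 73 reads per library, and its log2 change was -0.63 (SE 0.18, limma adjusted p = 0.00986), or -0.18 with plain library size (limma adjusted p = 0.427).

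On the far side of the locus miR-542-3p, the strand reported to repress survivin, rose most. It measured 377, 427 and 372 in ME and 678, 667 and 674 in L28BME. Every L28BME library was above every ME library, and the L28BME values lay close together. The means were 392 ± 30.2 and 673 ± 5.10 (SD, n = 3 each), a 1.72-fold rise. On the log2 scale the change was 0.78 (SE 0.086, limma adjusted p = 3.86e-06). The call held in all alternatives run, with adjusted p from 7.21e-19 to 0.000278. miR-542-5p, the lesser arm, was 34.3, 26.3 and 39.6 in ME and 41.4, 43.6 and 41.2 in L28BME. The groups did not overlap, but the ME values were spread and the log2 change of 0.34 (SE 0.14, limma adjusted p = 0.0508) was just outside the threshold. It passed with 6 of the alternatives, among them edgeR on the recovered reads (0.36, adjusted p = 0.0497). miR-542-3p exceeded miR-542-5p 11.0, 16.3 and 9.40 times in ME and 16.4, 15.3 and 16.3 times in L28BME, so the ratios overlapped (log2 difference 0.43, exact permutation two-sided p = 0.2). The difference was 0.26 without ME library 003 and 0.65 without ME library 002 (exact permutation p = 0.2 and 0.1).

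The miR-450 hairpins lie last. miR-450b-5p was 182, 211 and 189 in ME and 299.8, 251 and 279 in L28BME, with no overlap. Its mean rose 1.43-fold, from 194 ± 14.9 to 276 ± 24.5 (SD, n = 3 each). The log2 change of 0.51 (SE 0.099, limma adjusted p = 0.000771) passed in all alternatives run (adjusted p 2.15e-07 to 0.00631). miR-450b-3p, its opposite arm, was 62.4, 56.1 and 56.5 in ME and 74.5, 82.9 and 81.8 in L28BME. It also rose without overlap, by 0.45 on the log2 scale (SE 0.1, limma adjusted p = 0.00259). Both arms of Mir450b were thus higher.

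miR-450a-5p, made by Mir450-1 and Mir450-2, was 19.9, 17.7 and 15.7 in ME and 23.1, 21.5 and 20.3 in L28BME. The nearest values of the 2 groups, 19.9 and 20.3, almost touched, and the log2 change of 0.28 (SE 0.14, limma adjusted p = 0.0993) did not pass. It was 0.37 and passed with the total without let-7 as scale (limma adjusted p = 0.0295), and 0.75 with plain library size (limma adjusted p = 0.000122). miR-450a-1-3p went from 9.51, 7.06 and 7.12 to 10.6, 12.5 and 10.3. It was called higher (0.46, SE 0.17, limma adjusted p = 0.0382) on 30 to 56 reads per library, and lost that call when any of 5 libraries other than ME library 001 was left out, without a filter and with DESeq2 (adjusted p up to 0.142). miR-450a-2-3p, under the filter, was 3.71, 4.86 and 4.51 in ME and 4.73, 6.39 and 6.25 in L28BME, on 16 to 27 reads, and its groups overlapped.

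Taken by hairpin, the 12 tested strands fell into separate ranges along the locus. This split was noticed after the values were seen and was not tested. The 6 strands of Mir322, Mir503 and Mir351 had log2 changes from -0.63 to -0.014, and the 6 tested strands of Mir542 and the Mir450 hairpins had 0.28 to 0.78. Every strand of the later hairpins lay above every strand of the first 3, also with each of the 6 libraries left out in turn. Another scaling moves all strands almost alike and so could hardly change this order; with plain library size the ranges were -0.18 to 0.48 and 0.75 to 1.28. The direction of the first 3 hairpins depended on scaling: with plain library size 2 of their 6 strands were below 0. In the authors' deposited table the log2 changes had the same sign for all 12 tested strands, and 6 of the 13 listed had an FDR under 0.05 (46.3% of the 387 miRNAs tested here). Of the 8 strands of the rule 3 did. miR-322-3p and miR-450a-1-3p, both called here, did not pass there (authors' FDR 0.055 and 0.101).

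**Figure D2:**
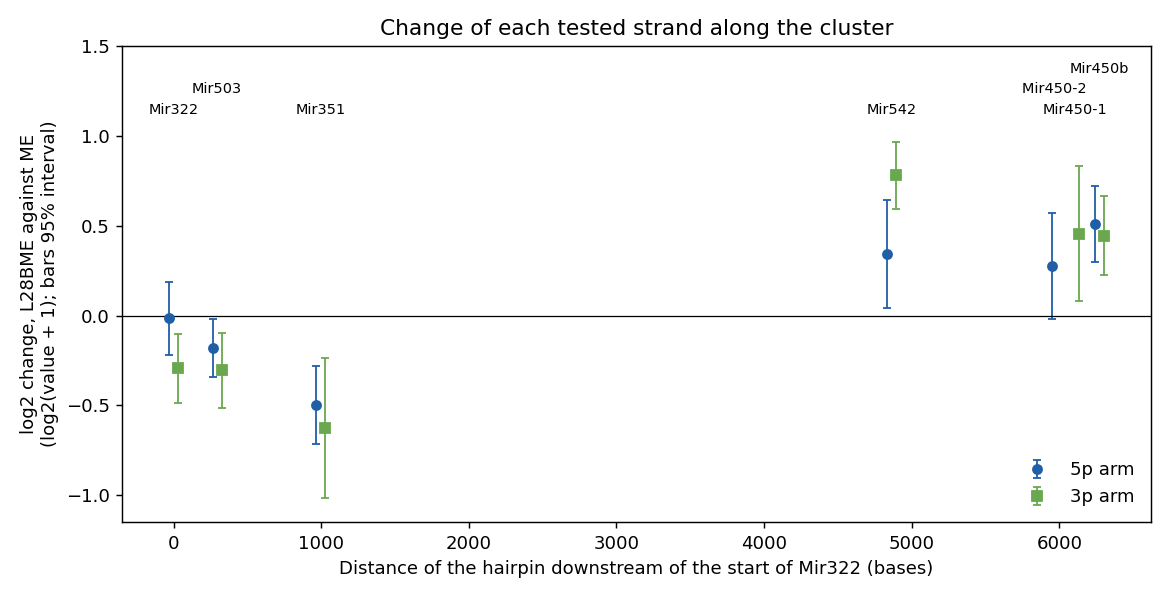
log2 change (L28BME against ME, on log2(value + 1)) with its 95% interval from limma for the 12 tested strands, against the distance of their hairpin downstream of the start of Mir322 in bases; the arms of a hairpin are offset sideways, and miR-450a-5p, which Mir450-1 and Mir450-2 both encode, is drawn at Mir450-2. The 6 strands within 996 bases lie at or below 0, from -0.63 to -0.014, and the 6 from 4862 bases onward lie between 0.28 and 0.78.

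**Figure D3:**
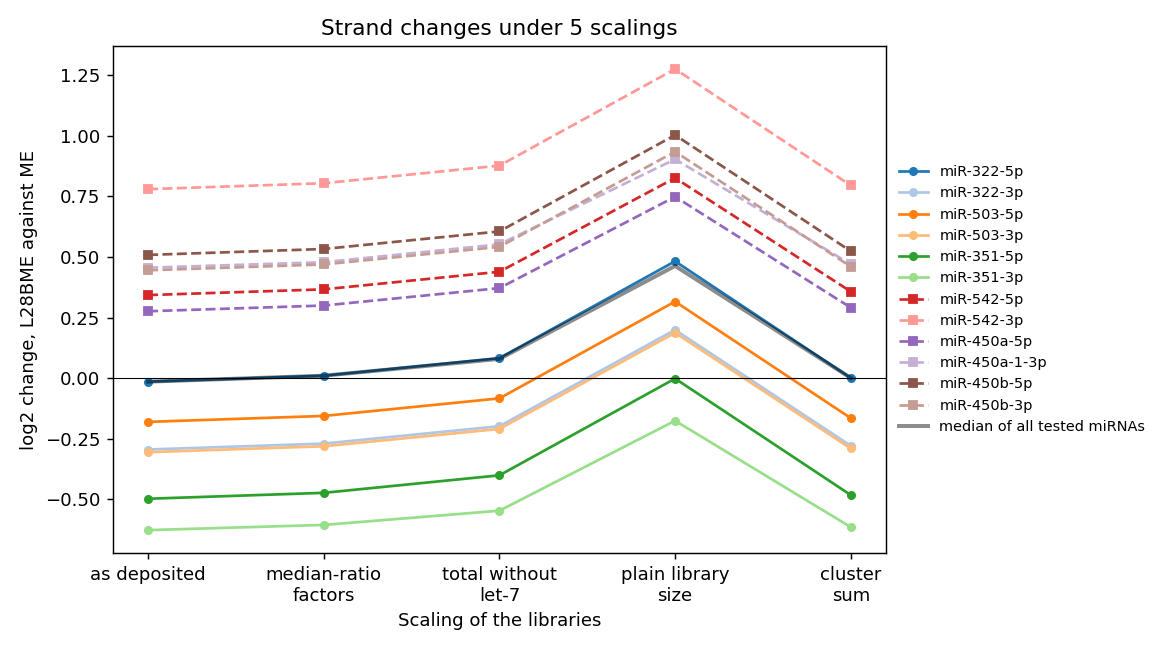
log2 change (L28BME against ME) of the 12 tested strands under 5 scalings of the libraries; solid lines with circles are strands of Mir322, Mir503 and Mir351, dashed lines with squares those of Mir542 and the Mir450 hairpins, and the thick grey line is the median of all tested miRNAs. Plain library size raises that median from -0.014 to 0.46 and moves every strand almost alike, so the order of the strands is nearly the same under all 5.

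The summed level of the 8 strands was 9003, 8973 and 7710 in ME and 8255, 8556 and 8539 in L28BME. The groups overlapped, and the log2 difference was -0.015 (exact permutation two-sided p = 1). The 8 strands held 0.719% ± 0.0341 of all ME reads and 1.004% ± 0.00699 of all L28BME reads (SD, n = 3), a measure that the loss of let-7 reads enters. Among reads outside let-7 the shares were 0.981% ± 0.0375 and 1.04% ± 0.00672 (SD, n = 3), without overlap, and exact permutation gave p = 0.1 for both shares, the smallest possible.

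Shares within the cluster are free of library scaling. miR-322-5p took 65.0% ± 3.37 of the summed level in ME and 65.0% ± 0.621 in L28BME (SD, n = 3). The share of miR-542-3p was 4.19%, 4.76% and 4.83% in ME and 8.21%, 7.80% and 7.89% in L28BME. miR-450b-5p went from 2.27% ± 0.227 to 3.28% ± 0.35, whereas miR-503-5p went from 18.0% ± 1.32 to 16.1% ± 0.223 and miR-351-5p from 7.53% ± 1.44 to 5.33% ± 0.438 (SD, n = 3). Of the 8 shares 6 did not overlap between the groups, those of miR-322-5p and miR-542-5p being the exceptions. On the deposited values 61.5% of all tested miRNAs did not overlap, and no such count was made relative to the cluster sum. The shares have a fixed total in each library, so they do not move independently. Without ME library 003 the difference in share shrank from -1.98 to -1.22 percentage points for miR-503-5p and from -2.19 to -1.38 for miR-351-5p. Each of the 6 had an exact permutation p = 0.1, the smallest possible, and 0.133 after Benjamini-Hochberg adjustment over the 8 shares. Scaling all libraries to the cluster sum was an alternative chosen after the data were seen. That sum holds the tested strands and differed by only -0.015 on the log2 scale, so the scaling could hardly move the changes. With it limma called miR-542-3p and miR-450b-5p higher (0.80 and 0.52) and miR-322-3p and miR-351-5p lower (-0.28 and -0.48). Of all tested miRNAs 25.1% were called higher and 28.9% lower.

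**Figure D4:**
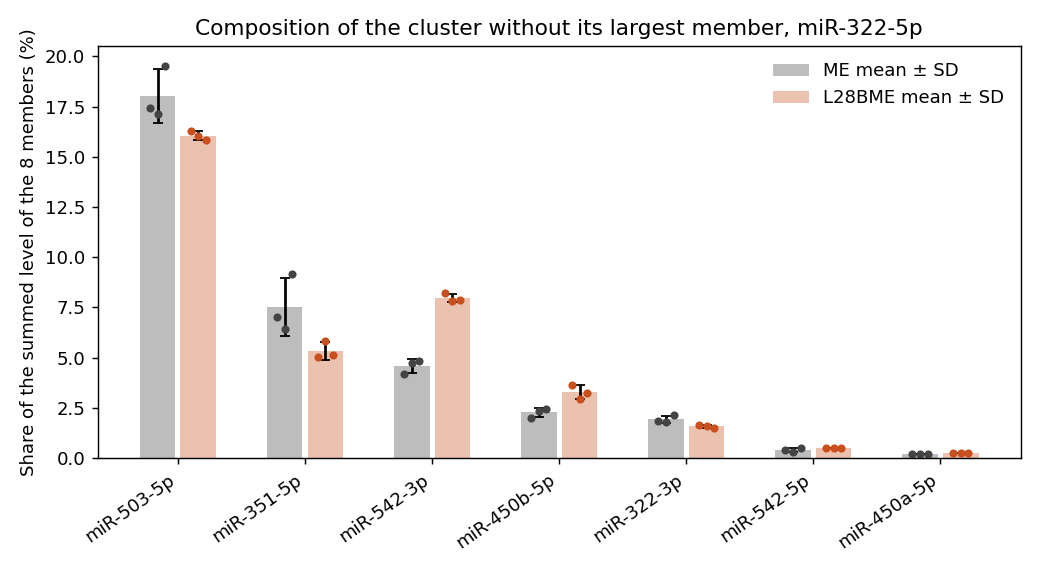
Share (percent) of the summed level of the 8 strands taken by each strand other than miR-322-5p, as bars for the group mean with SD (n = 3) and points for libraries. miR-542-3p goes from 4.59% to 7.97% and overtakes miR-351-5p, which goes from 7.53% to 5.33%.

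Mature strands have nearly one length here (21 to 24 bases), and their deposited values were also ordered. Whether the library preparation captured each sequence equally was not tested. The order, like the arm ratios and shares, therefore describes reads and not numbers of molecules. In ME the order was miR-322-5p, miR-503-5p, miR-351-5p, miR-542-3p, miR-450b-5p, miR-322-3p, miR-503-3p, miR-450b-3p, miR-542-5p, miR-450a-5p, miR-351-3p, miR-450a-1-3p and miR-450a-2-3p. Neighbours had separate ranges in 11 of 12 pairs, and miR-450a-5p and miR-351-3p overlapped. The order in L28BME differed at 2 places, and no neighbours overlapped there. miR-542-3p passed miR-351-5p: the ratio of the first to the second was 0.598, 0.742 and 0.528 in ME and 1.63, 1.34 and 1.54 in L28BME. miR-450a-1-3p passed miR-351-3p in the same way.

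The other listed carriers of these seeds are made elsewhere in the genome. RefSeq holds 10 mature strands with the seed AGCAGCA and 5 with CCCUGAG. The family shares below leave out those not listed. miR-16-5p, the most abundant miRNA of both groups, dominates the seed family of miR-322-5p, and its log2 change was -0.11 (limma adjusted p = 0.226). miR-15a-5p (0.041), miR-15b-5p (-0.049) and miR-195a-5p (0.15) did not pass either, and the scarce miR-497a-5p rose from 7.69 ± 1.36 to 11.3 ± 1.74 (SD, n = 3; limma adjusted p = 0.0306), a call lost without ME library 002 or L28BME library 005, without a filter and with DESeq2 (adjusted p 0.0639 to 0.134). That is 1 of 5 listed relatives higher and 0 lower, against 24.0% and 32.0% of all tested miRNAs, so near the background for higher calls. With miR-503-5p, whose seed shares all but the last base, counted in the family, miR-322-5p and miR-503-5p together held 4.18% ± 0.341 of the summed level in ME and 4.33% ± 0.258 in L28BME (SD, n = 3; exact permutation two-sided p = 0.7). The interval of miR-16-5p, -0.27 to 0.051, bounds the change of that family's main member on the deposited scale.

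Of the 2 listed relatives of miR-351-5p, miR-125b-5p fell from 365 ± 32.0 to 217 ± 20.5 (SD, n = 3; log2 change -0.75, limma adjusted p = 2.72e-05), and miR-125a-5p had -0.10 (limma adjusted p = 0.403). The summed level of the 3 strands was 1170, 1062 and 1160 in ME and 733, 863 and 765 in L28BME, without overlap (exact permutation p = 0.1, the smallest possible). miR-351-5p held 56.3% ± 3.88 of it in ME and 57.3% ± 0.619 in L28BME (SD, n = 3; exact permutation two-sided p = 0.8). In both groups it was the largest of the 3.

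LIN28 proteins are known to bind GGAG in the loop of let-7 precursors, so 3 hairpins of the cluster that hold these letters are shown with them in capitals (RefSeq, GRCm38.p6, minus strand of chromosome X, 5′ to 3′).
Mir322: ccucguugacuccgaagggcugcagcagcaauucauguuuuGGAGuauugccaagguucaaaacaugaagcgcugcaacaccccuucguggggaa
Mir503: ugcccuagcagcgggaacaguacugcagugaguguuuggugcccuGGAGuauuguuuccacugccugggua
Mir542: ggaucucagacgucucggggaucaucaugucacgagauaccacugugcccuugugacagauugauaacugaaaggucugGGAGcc
In Mir322 the letters begin at base 42 of the hairpin, and 3 of the 4 are the end of miR-322-5p. In Mir503 they begin at base 46, and 3 of the 4 open miR-503-3p. In Mir542 they begin at base 80, outside both arms. The sequences of Mir450-1, Mir450-2 and Mir450b hold no GGAG. The hairpin of Mir351 was not searched, but its arm miR-351-5p, printed above, holds GGAG from base 8. The letters were searched on the transcribed strand, and 44.5% of the 1005 mouse hairpins in the same table hold them, so their presence is common and says nothing about binding.

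The cluster is also known from muscle and mesenchymal cells, and markers of such cells were looked up beside it. Of 10 listed miRNAs of stroma, endothelium and muscle 9, all but miR-214-3p, were in the table. Their summed value was 196 to 217 in ME and 373 to 381 in L28BME, nearly all of it miR-199a-3p, which had a log2 change of 0.89 and was called higher by limma (adjusted p = 1.09e-06). miR-199b-5p rose as well, from 6.65 to 18.5. Which hairpin gave the reads counted as miR-199a-3p was not tested. miR-199a-5p averaged 0.613 in ME and 0.0789 in L28BME, and miR-10b-5p 2.90 and 1.73. Neither of these 2 reached the filter. miR-143-3p averaged 1.75 in ME and 2.59 in L28BME, miR-1a-3p 0.839 and 1.02, and miR-145a-5p 0.0736 and 0.287. miR-206-3p averaged 0.147 and 0.142, and miR-133a-3p, a muscle miRNA, 0.0736 and 0. These scarce miRNAs did not reach the filter either. The summed erythroid list was 4.41 to 7.12 in ME and 9.68 to 10.8 in L28BME, without overlap. The part of such cells in the rises of miR-542-3p, miR-450b-5p, miR-450b-3p and miR-450a-1-3p was not tested. In these bulk libraries more cells of a type and more RNA per cell cannot be told apart.

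The tested miRNAs whose profile over the 6 libraries was nearest to that of the cluster's sum, by root mean square distance of centred log2 values, were miR-26b-5p (0.0216), miR-15b-3p (0.0368), miR-17-5p (0.0422), miR-20b-5p (0.043) and miR-93-5p (0.0433). Their log2 changes ran from -0.034 to 0.0018, beside -0.015 for the sum, and none passed limma's test.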

How the data were processed

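MicroRNA libraries of ME (n = 3) and L28BME (n = 3) cells were made from total RNA with a QIAseq kit, per the labels' protocols; the build was GRCm38, per the submitters' processing notes. The sources used here name no aligner or counter and do not say how molecular identifiers were used. The authors deposited 1 table of 1452 features (1184 miRNAs, 268 piRNAs) with a scaled signal per library, called CPM per the file headers, although column sums differ between libraries. Dividing each column by its smallest value gave whole numbers for 100% of entries (tolerance 0.001), so reads were recovered. The table also holds the authors' larger group mean, signed fold change (a score), log2 fold change and p-values, from a tool not named per the file headers. Columns name the group and a library number (001 to 006), not the labels' replicate.

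The filter kept the 387 miRNAs that reached 5 in 3 or more libraries. They were tested together by limma with a trend on log2(value + 1), two-sided, with Benjamini-Hochberg adjustment. A fold on that scale understates changes of scarce miRNAs. Sums, shares and ratios were compared by exact permutation over libraries. Strands were named by the rule, as other arms of the same hairpins, as listed seed relatives or as the 5 nearest profiles; marker miRNAs were listed as well. Members and lists were chosen with earlier results of these data known. Alternatives were other scalings, filters, pseudocounts (0.5 and 5), limma without trend, edgeR and DESeq2 on recovered reads and each library left out, all with the same tested miRNAs unless the filter changed. The code was tested on simulated data. Sequences and hairpin positions are from RefSeq (GRCm38.p6); all 13 strands matched, and the hairpin of Mir351 is named only. Software was limma 3.58.1, DESeq2 1.42.0 and edgeR 4.0.16 in R 4.3.3, with figures by matplotlib 3.10.9.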

Additional observations from a re-analysis of the deposited data

How the results depend on the processing

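No paired analysis was possible because library columns do not name a replicate of the labels. Plain library size moved the median of all tested miRNAs to 0.46. With it limma called 242 higher and 33 lower in all, and 6 higher and 0 lower of the 8 strands. The total without let-7 moved that median to 0.079. It gave 128 higher and 96 lower of the 387 tested miRNAs, and 4 higher and 1 lower of the 8 strands. Leaving out single libraries gave 72 to 93 higher and 96 to 137 lower in all, and 2 to 3 higher and 1 to 3 lower of the 8. With plain library size the log2 change reversed to 0.48 for miR-322-5p, 0.20 for miR-322-3p, 0.32 for miR-503-5p, 0.19 for miR-503-3p, 0.45 for miR-15b-5p, 0.39 for miR-16-5p and 0.39 for miR-125a-5p, and the summed level of the cluster to 0.48. For miR-322-5p it was 0.010 with median-ratio factors, 0.083 with the total without let-7, 0.0092 with edgeR, 0.0066 with DESeq2, 0.0010 scaled to the cluster sum, and -0.13 to 0.044 with single libraries left out. miR-15b-5p was 0.048 with the total without let-7 and -0.15 to 0.074 with libraries left out, miR-15a-5p -0.096 to 0.12, and miR-195a-5p -0.11 to 0.30. The cluster sum was 0.0091 with median-ratio factors, 0.082 with the total without let-7, and -0.089 to 0.023 with libraries left out. Under the same omissions the share of miR-322-5p within the cluster differed between the groups by -1.95 to 1.01 percentage points, that of the cluster in the miR-15/16 seed family by -0.045 to 0.29, and that of miR-351-5p in the miR-125 family by -0.20 to 3.21. Without miR-16-5p the seed family share differed by -0.52 percentage points. For these results the cause was not tested. Of 204 strand results under alternatives 168 kept their direction and side of the threshold. Scarce strands rest on 16 to 73 reads per library, which limits what they can show.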
